A study of Homo sapiens with 6 samples.

Results

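Glucose-6-phosphate can leave glycolysis by several side routes, and the genes H6PD and SLC37A4, which serve it in the endoplasmic reticulum, and RPIA and PRPS1, which make ribose phosphate and its activated form, were examined in OGT-depleted colorectal cancer cells. The genes were chosen by name, and all 4 were found among the 5681 genes of the deposited table. The libraries were made from HT-29, a long-established human line of colorectal cancer cells, expressing a scramble hairpin (Scramble, labeled WT, n = 3 libraries) or a hairpin against OGT (shOGT, labeled OGT knock down, n = 3 libraries). OGT is the enzyme that places O-GlcNAc, a single sugar made from glucose, on nuclear and cytosolic proteins. All libraries came from this 1 line, none was from cells without a hairpin, and the labels do not say which OGT hairpin was used or whether the libraries came from separate cultures, so the p-values below measure the spread between these libraries only.

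SLC37A4 is the transporter that carries glucose-6-phosphate from the cytosol into the lumen of the endoplasmic reticulum. There, H6PD oxidizes it and then acts on the lactone product, which gives the lumen its own supply of NADPH, apart from that of the cytosolic pentose phosphate pathway. In the cytosol, RPIA interconverts ribulose-5-phosphate and ribose-5-phosphate at the end of the oxidative branch. PRPS1 transfers a pyrophosphate group from ATP to ribose-5-phosphate, which forms phosphoribosyl pyrophosphate (PRPP). PRPP is the sugar donor for the synthesis and salvage of purine, pyrimidine and NAD nucleotides.

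The table lists only genes that had passed the thresholds of the authors on these same libraries. None of the 5681 genes had an absolute log2 ratio of group means under 1 or a deposited adjusted p of 0.05 or more. Each value was a read count divided by the size factor of its library, and whole reads could be recovered for 100% of the values in each library (within 0.02 of a whole number). The recovered reads on these genes numbered 3302558 to 4504303 per library, which is not the full depth. OGT itself retained 4.99% of its Scramble level in shOGT (log2 fold change −4.32, adjusted p = 1.59e-12, limma), with no overlap between the groups. Of 11 markers of intestinal epithelium, 5 were in the table. KRT20, KRT19 and CDH17 were higher and LGALS4 and VIL1 were lower in shOGT, with a summed normalized count of 9062 to 10932 in Scramble and 18490 to 20474 in shOGT. Of 13 genes listed as markers of other cell types, 4 were in the table (LYZ, PECAM1, PDGFRB and CD79A), all higher in shOGT. LYZ is also expressed in intestinal epithelium, so it is no sure marker of another cell type, and its level was read only summed with CD79A. PDGFRB had no read in 2 Scramble libraries, and the sums were 42.3 to 51.4 in Scramble and 129 to 199.99 in shOGT for PECAM1 and 7922 to 8623 and 15663 to 17413 for LYZ with CD79A. The part of these shifts in the results below was not tested, and in bulk RNA fewer cells of a type and less RNA per cell cannot be told apart.

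The 4 genes lie on different chromosomes, and PRPS1 is on the X chromosome, as is OGT. On GRCh38 (GENCODE version 29, whose identifiers, starts and ends matched all 5681 genes), H6PD (ENSG00000049239) runs from 9234775 to 9271337 on chromosome 1, plus strand, and its longest coding transcript has 5 exons and 2406 coding bases. SLC37A4 (ENSG00000137700) runs from 119024114 to 119030906 on chromosome 11, minus strand, with 12 exons and 1353 coding bases. RPIA (ENSG00000153574) runs from 88691644 to 88750935 on chromosome 2, plus strand, with 9 exons and 933 coding bases. PRPS1 (ENSG00000147224) runs from 107628424 to 107651026 on chromosome X, plus strand, with 7 exons and 963 coding bases. The gene lengths in the table equal the bases of all annotated exons of these genes, UTRs included.

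The promoter sequences of the 4 genes are shown because the genes moved in the same direction and because the study concerns c-Myc, which binds the E-box CACGTG. They were taken from RefSeq (GRCh38.p14, windows for 4 of 4 genes), are written 5′ to 3′ on the strand of the gene and end before any GENCODE transcript start in the window. Capitals mark CANNTG, the general form of the E-box. The H6PD window lies at chr1:9239597-9239843 (plus strand), SLC37A4 at chr11:119030907-119031127 (minus strand), RPIA at chr2:88691423-88691643 (plus strand) and PRPS1 at chrX:107628260-107628423 (plus strand).
H6PD: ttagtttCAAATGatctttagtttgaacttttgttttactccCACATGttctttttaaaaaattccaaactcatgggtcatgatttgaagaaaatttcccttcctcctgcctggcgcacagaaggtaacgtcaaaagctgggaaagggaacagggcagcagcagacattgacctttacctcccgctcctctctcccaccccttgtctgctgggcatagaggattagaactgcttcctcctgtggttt
SLC37A4: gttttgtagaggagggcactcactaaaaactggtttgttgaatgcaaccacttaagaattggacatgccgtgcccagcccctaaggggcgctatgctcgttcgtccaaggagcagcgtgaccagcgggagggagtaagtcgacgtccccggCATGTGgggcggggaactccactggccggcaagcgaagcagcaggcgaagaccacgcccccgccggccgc
RPIA: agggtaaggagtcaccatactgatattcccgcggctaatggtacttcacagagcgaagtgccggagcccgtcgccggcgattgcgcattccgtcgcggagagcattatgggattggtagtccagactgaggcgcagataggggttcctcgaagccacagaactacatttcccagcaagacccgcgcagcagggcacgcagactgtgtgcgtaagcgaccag
PRPS1: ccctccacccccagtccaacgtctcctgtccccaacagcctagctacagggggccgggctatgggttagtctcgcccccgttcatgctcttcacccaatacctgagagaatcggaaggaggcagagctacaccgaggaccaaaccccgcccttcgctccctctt

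The E-box CACGTG, which reads the same on both strands, was in 0 of the 5 RefSeq windows of these genes when 250 bases before each start were searched (SLC37A4 has 2 windows). Of all 35116 such windows, 6.34% held it, as did 8.21% of the 4875 windows of genes in the table. CANNTG, which includes CACGTG, was in 2 of the 5 windows, as CAAATG and CACATG in H6PD and as CATGTG in SLC37A4, against 61.8% of all windows. The windows of RPIA and PRPS1 held no CANNTG. Over the whole 250 bases searched, which run past the printed bases, the GC content was 44.8% for H6PD, 63.2% for the SLC37A4 window shown, 60.0% for RPIA and 63.6% for PRPS1, with a median of 58.0% over all windows. The H6PD window belongs to a RefSeq start 5072 bases inside the gene as GENCODE draws it, and the bases before the outer start were not used here.

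All 4 genes fell in shOGT. H6PD was down to 22.2% of its Scramble level, SLC37A4 to 30.2%, RPIA to 42.8% and PRPS1 to 45.4%. The endoplasmic reticulum pair thus had larger falls than the ribose phosphate pair on this scale. With limma's trend method on log2(normalized count + 1), a scale that slightly understates changes, each of the 4 passed a 2-fold change and a Benjamini-Hochberg adjusted p under 0.05. Over all 5671 genes tested, 47.2% were called lower and 52.2% higher in shOGT, and the groups did not overlap for 99.5%. Since the table was restricted on this contrast, passing the test adds no independent evidence.

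H6PD, the lumenal dehydrogenase, had normalized counts of 1265, 1101 and 1073 in Scramble, which came down to 293, 218 and 253 in shOGT. Every shOGT library was far below the lowest Scramble library. The means were 1146 ± 104 and 255 ± 37.1 (SD, n = 3 each), and by limma the log2 fold change was −2.17 ± 0.12 (standard error) at an adjusted p of 9.75e-10. Of all genes tested, 9.87% had a lower log2 fold change, and of those with a negative one, 20.8% did. H6PD shared no exon base with another gene. For shared stretches, only its longest coding transcript was searched (5590 bases, against 9321 exon bases counted). None of the 5516 stretches of 75 bases in it occurs in a transcript of another gene in GENCODE.

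SLC37A4, the transporter that feeds H6PD, had 812, 756 and 748 normalized counts in Scramble and 281, 221 and 198 in shOGT. The groups did not overlap, and the shOGT libraries varied more than the Scramble libraries relative to their means (18.4% against 4.54%). The means were 772 ± 35.1 and 233 ± 42.9 (SD, n = 3 each), and by limma the log2 fold change was −1.74 ± 0.13 (standard error) at an adjusted p of 1.72e-08. On the opposite strand, exons of TRAPPC4 cover 544 bases, or 8.79%, of the exon bases of SLC37A4. TRAPPC4 was not in the table, and the counting is not stated to use strand, so reads from these bases cannot be told apart.

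RPIA, the isomerase that yields ribose-5-phosphate, had 478, 547 and 459 normalized counts in Scramble and 224, 196 and 215 in shOGT. The groups stood well apart, although the recovered reads of RPIA in shOGT numbered only 183 to 213. The means were 495 ± 46.2 and 212 ± 14.4 (SD, n = 3 each), and by limma the log2 fold change was −1.22 ± 0.12 (standard error) at an adjusted p of 3.08e-07. RPIA shared no exon base with another gene and none of its 1774 stretches of 75 bases.

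PRPS1, the PRPP synthetase on the X chromosome, had 758, 751 and 715 normalized counts in Scramble and 378, 318 and 314 in shOGT. The Scramble libraries lay close together, and the highest shOGT library was the one numbered 4. The means were 741 ± 23.1 and 337 ± 35.7 (SD, n = 3 each), and by limma the log2 fold change was −1.14 ± 0.11 (standard error) at an adjusted p of 1.86e-07. Only its longest coding transcript was searched (1382 bases, against 2623 exon bases counted). Of the 1308 stretches of 75 bases in it, 3 (0.229%) also occur in the pseudogene PRPS1P2 on chromosome 9. This pseudogene was in the table and went the other way. PRPS1P2 had 24.8, 27.9 and 35.0 normalized counts in Scramble and 103, 108 and 96.7 in shOGT (log2 fold change 1.79, standard error 0.24, adjusted p = 7.23e-06 from limma).

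**Figure D1:**
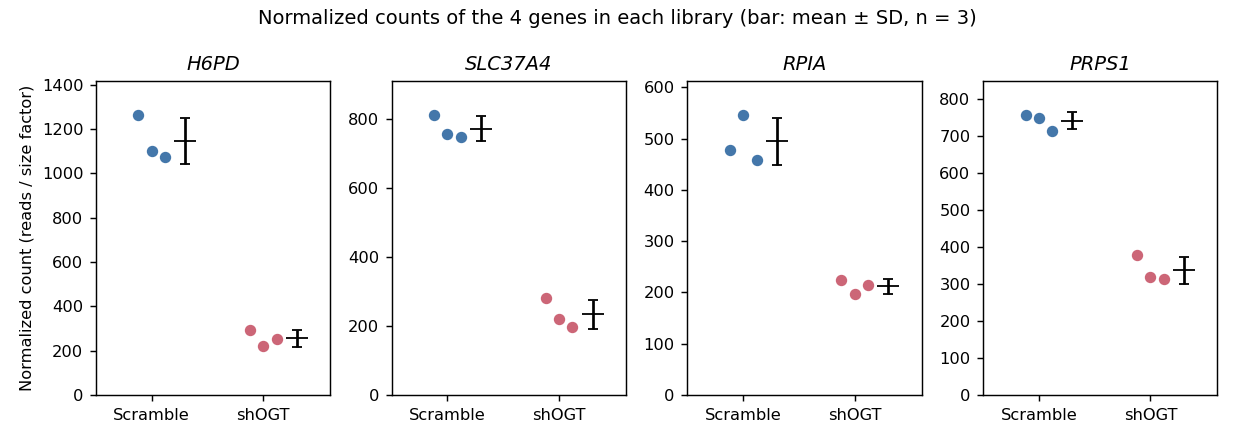
Normalized counts (reads divided by size factor, y axis from 0) of H6PD, SLC37A4, RPIA and PRPS1 in the 3 Scramble and 3 shOGT libraries, with the mean ± SD beside the points. In each panel all shOGT points lie below all Scramble points, by the widest margin for H6PD (1146 against 255).

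When the 6 values of a gene were permuted exactly (two-sided), p was 0.1 for each gene, and a comparison of 3 libraries with 3 cannot go lower. Among the shOGT libraries, the one numbered 4 was highest for all 4 genes. Leaving it out moved the log2 fold changes to −2.28 for H6PD, −1.88 for SLC37A4, −1.26 for RPIA and −1.23 for PRPS1. With any 1 library left out, the ranges were −2.28 to −2.07 for H6PD, −1.88 to −1.63 for SLC37A4, −1.27 to −1.14 for RPIA and −1.23 to −1.09 for PRPS1, and each gene stayed called in 6 of 6 fits. Relative to its mean, a gene usually varied more between replicates than its read number alone would give. In Scramble the coefficient of variation of H6PD was 9.03%, where its mean read number alone would give 2.80%, and that of PRPS1 was 3.12%, below the 3.49% of counting.

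The size of the falls depended on how the libraries were scaled. The deposited size factors were kept for the values above. TMM factors over the table moved the log2 fold changes by less than their standard errors. They gave −2.18 for H6PD, −1.75 for SLC37A4, −1.23 for RPIA and −1.15 for PRPS1. TMM also had no unchanged gene to rest on, so its closeness to the deposited scaling is no independent support. Recomputing size factors as the median of ratios over the table, where every gene differs between the groups, shifted the median over all genes upward by 0.71 on the log2 scale. H6PD at −1.46 (adjusted p = 3.18e-08, limma) and SLC37A4 at −1.02 (adjusted p = 2.38e-06, limma) still passed a 2-fold change, with 19.2% of the genes tested called lower and 52.5% higher. RPIA at −0.50 (adjusted p = 0.00157, limma) and PRPS1 at −0.43 (adjusted p = 0.00156, limma) no longer did.

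**Figure D2:**
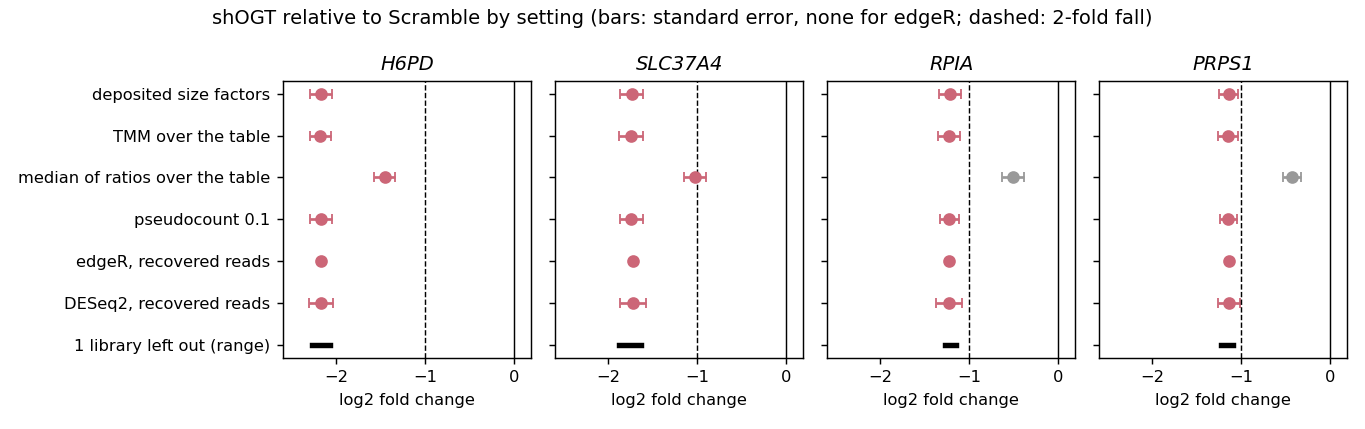
Log2 fold change of each gene (x axis, shOGT relative to Scramble) under 6 settings, with the standard error where the tool gives one and the range over fits that leave out 1 library. Red points pass a 2-fold change (dashed line) and adjusted p under 0.05, and the gray points, RPIA at −0.50 and PRPS1 at −0.43 under the median of ratios, do not.

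Among the genes of the table, no value lay near 0, so the 4 genes were read against the other lower genes. The median log2 fold change of the 4 was −1.48, against −1.55 over the 2677 genes called lower and 1.05 over all genes tested. The median over all genes sits between the lower and the higher genes and turned sign when a shOGT library was left out. It was −0.96 without the one numbered 4, −0.93 without 5 and −0.90 without 6. Fewer genes passed the filter for testing in these fits (5299, 5300 and 5300, against 5671). Genes called higher numbered 2518, 2496 and 2483, against 2959, and genes called lower 2604, 2561 and 2546, against 2677. These medians thus cover different sets of genes, and the change of sign does not show a shift of the same genes. H6PD was lower than most of the called-lower genes, whereas 74.5% of the genes with a negative log2 fold change were lower than RPIA and 83.4% were lower than PRPS1. SLC37A4 stood between, with 38.8% below it.

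**Figure D3:**
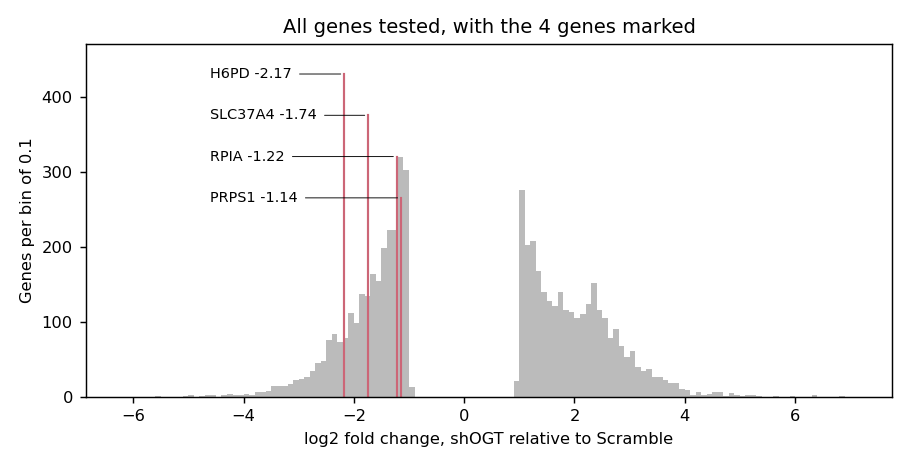
Histogram of the log2 fold changes of the 5671 genes tested (x axis, bins of 0.1, y axis genes per bin), with vertical lines at H6PD, SLC37A4, RPIA and PRPS1. The gap around 0 shows the restriction of the table, and RPIA and PRPS1 lie near its lower edge at −1.22 and −1.14.

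Ratios between genes of the same library do not depend on size factors, and 8 were computed, of which 5 were added after the values were seen. Each was tested by an exact two-sided permutation test, which cannot go below p = 0.1 (0.114 with Benjamini-Hochberg adjustment over the 8). The log2 ratio of H6PD to SLC37A4 was 0.64, 0.54 and 0.52 in Scramble, and in shOGT it was 0.06, −0.01 and 0.35. The groups did not overlap, and the mean ratio dropped by 0.44 on the log2 scale (exact permutation p = 0.1), so H6PD lost more than its transporter in these libraries. The log2 ratio of H6PD to RPIA dropped by 0.95, from 1.21 ± 0.20 to 0.26 ± 0.12 (SD, n = 3 each, exact permutation p = 0.1), and that of H6PD to PRPS1 dropped by 1.03 (exact permutation p = 0.1). SLC37A4 also dropped against RPIA, by 0.52, and against PRPS1, by 0.60, with no overlap in either case (exact permutation p = 0.1 for each).

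No shift of this size was seen between the ribose phosphate genes. In Scramble the log2 ratio of RPIA to PRPS1 was −0.66, −0.46 and −0.64, set against −0.75, −0.70 and −0.54 in shOGT. The groups overlapped, and the mean difference of −0.08 was within the SD of either group (0.11 in each, exact permutation p = 0.5). With 1 library left out it ran from −0.14 to −0.01.

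**Figure D4:**
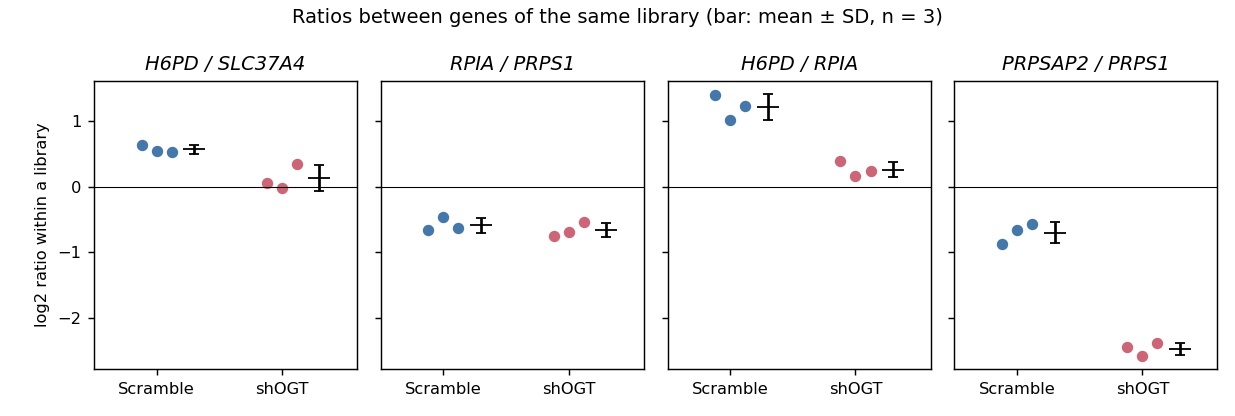
Log2 ratios of normalized counts between genes of the same library (y axis) in Scramble and shOGT, with the mean ± SD of 3 libraries beside the points. H6PD over SLC37A4, H6PD over RPIA and PRPSAP2 over PRPS1 are lower in every shOGT library (mean differences −0.44, −0.95 and −1.77), while RPIA over PRPS1 overlaps between the groups.

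Levels of different genes were compared per kilobase of annotated exon, a scale that lowers genes whose annotated exons exceed their longest coding transcript. The bases were 6186 against 2356 for SLC37A4, 9321 against 5590 for H6PD, 2623 against 1382 for PRPS1 and 1848 against 1848 for RPIA. The order of the genes and the gap between the pairs hold for this length only, and other lengths were not used. In Scramble, PRPS1 had 283 ± 8.81 normalized counts per kilobase, RPIA 268 ± 25.0, SLC37A4 125 ± 5.67 and H6PD 123 ± 11.1 (SD, n = 3 each). PRPS1 and RPIA overlapped, as did SLC37A4 and H6PD, while the pairs were apart. In shOGT the order was the same, at 128 ± 13.6 for PRPS1, 115 ± 7.79 for RPIA, 37.7 ± 6.94 for SLC37A4 and 27.3 ± 3.98 for H6PD (SD, n = 3 each). PRPS1 and RPIA still overlapped. SLC37A4 and H6PD no longer did, but by a narrow margin (32.0 in the lowest shOGT library for SLC37A4, 31.4 in the highest for H6PD).

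Other genes of the same or nearby routes were read from hand-written lists. Of 10 genes for glucose-6-phosphate transport and use in the endoplasmic reticulum and for the steroid dehydrogenases there, 4 were in the table and all 4 were called lower, with a median log2 fold change of −1.63, where 47.2% of all genes tested were called lower and nearly every gene of this restricted table was called in one direction or the other. Besides H6PD and SLC37A4, these were SLC37A2, a relative of the transporter, and the steroid dehydrogenase HSD11B2. HSD11B2 inactivates cortisol and is not itself a step of glucose-6-phosphate transport or use. HSD11B2 had 244 ± 23.7 normalized counts in Scramble against 94.0 ± 16.4 in shOGT, and SLC37A2 had 49.9 ± 11.4 against 17.9 ± 8.85 (all SD, n = 3), with log2 fold changes of −1.38 (adjusted p = 3.69e-06, limma) and −1.53 (adjusted p = 0.00176, limma). The other 6, among them the glucose-6-phosphatase subunits G6PC and G6PC3, were not in the table and were not analysed here. Under the median of ratios, only H6PD and SLC37A4 of this list stayed called.

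Of 12 pentose phosphate pathway genes, 3 were in the table and called lower (H6PD, RPIA and SHPK), against 47.2% of all genes tested, with a median log2 fold change of −1.79. SHPK, the kinase that forms sedoheptulose-7-phosphate, had few reads, at 22.2, 39.6 and 24.8 normalized counts in Scramble and 15.8, 9.64 and 2.28 in shOGT (log2 fold change −1.79, standard error 0.53, adjusted p = 0.00473, limma). Without the shOGT library numbered 6 its log2 fold change was −1.12, and under the median of ratios it was −1.14 and not called (adjusted p = 0.0515, limma). The cytosolic enzymes PGLS and PGD and the carbon-shuffling enzymes TKT and TALDO1 were not in the table and were not analysed here.

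Of 11 genes of ribose phosphate and PRPP synthesis, 3 were in the table and called lower (RPIA, PRPS1 and PRPSAP2), against 47.2% of all genes tested. PRPSAP2 encodes a protein that associates with the PRPP synthetases. It had 413, 476 and 482 normalized counts in Scramble and 68.4, 52.5 and 59.2 in shOGT, and its log2 fold change was −2.91 (limma, adjusted p = 7.46e-10) with the deposited scaling and −2.20 with the median of ratios. The median log2 fold change of the 3 was −1.22. In every shOGT library, the ratio of PRPSAP2 to PRPS1 was below that of every Scramble library, and the mean log2 ratio dropped by 1.77 (exact permutation p = 0.1). The second synthetase PRPS2 and the partner PRPSAP1 were not in the table and were not analysed here.

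PRPP enters nucleotide synthesis and salvage, and of 21 genes of these pathways 6 were in the table and all 6 were called lower, against 47.2% of all genes tested, with a median log2 fold change of −1.29. HPRT1, which salvages purine bases with PRPP, had 726, 766 and 731 normalized counts in Scramble and 117, 101 and 94.5 in shOGT. HPRT1 and PRPS1 were near each other in Scramble in normalized counts, and HPRT1 dropped by 1.68 against PRPS1 in shOGT (exact permutation p = 0.1), with a log2 fold change of −2.83 of its own (adjusted p = 1.45e-10, limma). IMPDH1 and IMPDH2, which lead to guanine nucleotides, had log2 fold changes of −2.23 (adjusted p = 3.70e-10, limma) and −1.37 (adjusted p = 3.33e-09, limma). PAICS and PFAS of de novo purine synthesis had −1.21 (adjusted p = 8.40e-09, limma) and −1.04 (adjusted p = 8.51e-07, limma), and DHODH of pyrimidine synthesis had −1.06 (adjusted p = 0.000156, limma). Under the median of ratios HPRT1 at −2.11 and IMPDH1 at −1.51 stayed called and the other 4 did not. Without the Scramble library numbered 1, PFAS at −0.98 and DHODH at −0.96 missed a 2-fold change, and DHODH also missed it, at −0.90, without the shOGT library numbered 6.

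Of 13 genes that bring glucose-6-phosphate in, take it elsewhere or act at nearby steps, 3 were in the table. Of these, 1 was called lower and 2 higher, against 47.2% and 52.2% of all genes tested, with a median log2 fold change of 2.76. GPI, which passes it down glycolysis, had a log2 fold change of −1.91 (adjusted p = 3.14e-10, limma). PGM2L1, which makes glucose-1,6-bisphosphate, rose from 834, 984 and 923 normalized counts in Scramble to 5505, 6587 and 6461 in shOGT (log2 fold change 2.76, adjusted p = 2.01e-11, limma). GFPT2, of hexosamine synthesis, acts on fructose-6-phosphate and not on glucose-6-phosphate itself. GFPT2 rose from 8.41 ± 2.22 to 68.7 ± 6.84 normalized counts (SD, n = 3 each, log2 fold change 2.91, adjusted p = 1.00e-06, limma). The hexokinase genes HK1 and HK2 were not in the table and were not analysed here.

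**Figure D5:**
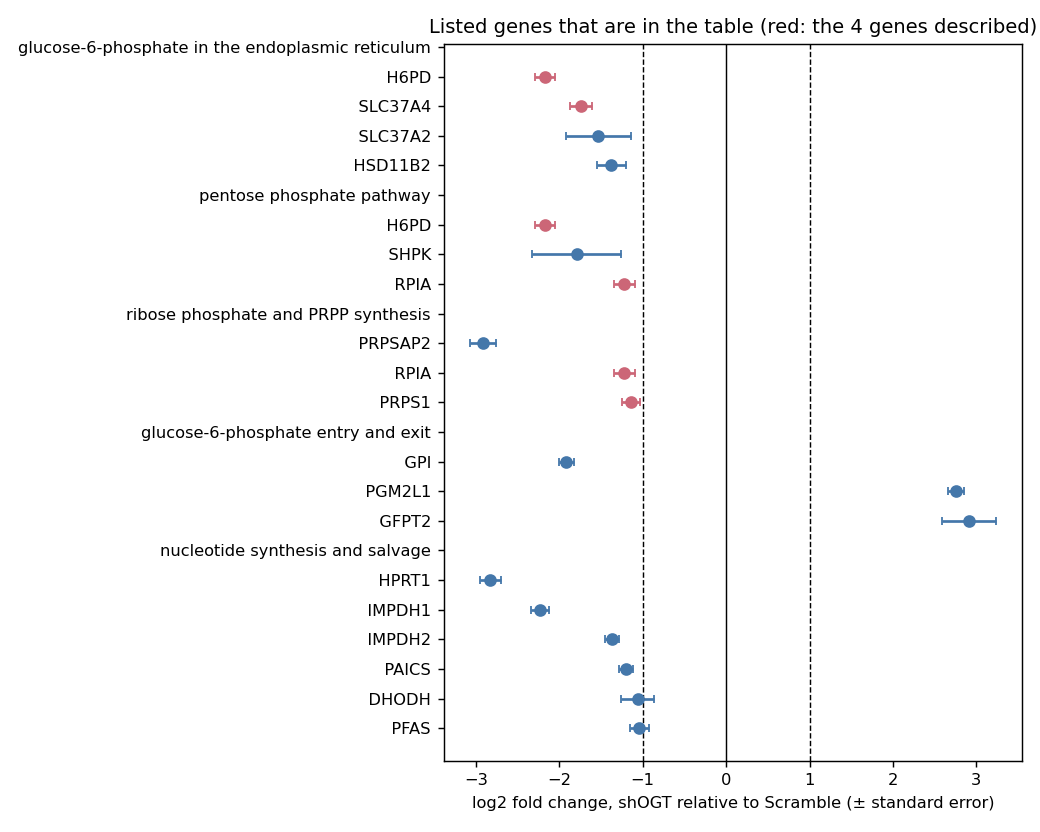
Log2 fold change (x axis, shOGT relative to Scramble) with standard error for the genes of 5 lists that are in the table, the 4 genes described in red and dashed lines at a 2-fold change. PRPSAP2 at −2.91 and HPRT1 at −2.83 lie lowest, and PGM2L1 at 2.76 and GFPT2 at 2.91 are the ones to the right of 0.

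For each gene, the profiles most like it over the 6 libraries were found among 3452 other genes (those averaging 50 or more normalized counts), as the root mean square difference of log2(normalized count + 1) after centering. Nearest to H6PD were GPR35 (0.0422) and MDK (0.0462). Nearest to SLC37A4 were HNRNPL (0.0512), E2F1 (0.0574) and UCK2 (0.0604), and nearest to RPIA were IKBKE (0.0453), NFKB1 (0.0506) and ESYT1 (0.0598). PRPS1 had the closest neighbors, ZNF76 (0.0241), SIDT2 (0.0245) and RALY (0.0268), with RALY at 5529 to 6223 normalized counts in Scramble and 2499 to 2973 in shOGT. None of the 4 genes was among the nearest 3 of another, and the points of these profiles share libraries and size factors.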

How the data were processed

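RNA-seq was compared between HT-29 cells expressing a Scramble hairpin (n = 3) or a hairpin against OGT (n = 3). The authors deposited a signal table of counts divided by 1 size factor per library, not divided by gene length. The submitters' processing notes name cutadapt 1.9, HISAT2 2.0.4, UMI-tools, StringTie 1.3.4d, DESeq2 and edgeR, and the build mm8, a mouse build, whereas the gene positions of the table are those of GENCODE 29 on GRCh38. The labels describe oligo(dT) selection, dUTP marking of second strands and adapters with molecular identifiers, and the study's methods name another strand-specific kit. The table's own group means, fold changes and p-values (the comparison by the authors) were used only to learn how it was restricted. The column gene_length was used for levels per kilobase.

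Log2(normalized count + 1) was modeled with limma 3.58.1 (trend method, R 4.3.3) for the 5671 genes that reached 1 in 3 or more libraries, with the group as the only term and Benjamini-Hochberg adjustment over all genes fitted. Whole reads, recovered as multiples of each library's step, were tested with edgeR 4.0.16 and DESeq2 1.42.0 as alternatives. The fits were also run on simulated counts in which only some genes were changed and the true size factors were given. Every gene of the table differs between the groups, so this run does not bear on the scaling. Other alternatives were TMM, the median of ratios, 0.1 as the pseudocount, all genes unfiltered, only genes averaging 5 or more, and leaving out each library. Named genes were the 4 genes, OGT, genes of the hand-written lists in the table, and the 3 nearest profiles per gene, of which 1 is not reported here. PRPS1P2 and TRAPPC4 were named for shared sequence and overlapping exons, and the cell markers for the check of the cell line. The genes, lists and tests were chosen with earlier results of these data known. Exon overlaps and shared stretches came from GENCODE 29, and promoters from RefSeq. Protein sequences were not used here. The table was restricted to genes that differ, so its total reads are not library depth.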

Additional observations from a re-analysis of the deposited data

How the results depend on the processing

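The direction of H6PD, SLC37A4, RPIA, PRPS1 and OGT held in each alternative. The alternatives were run for OGT, PRPS1P2, the 4 genes and the listed genes in the table, and not for the nearest profiles or the cell markers. Among the genes run, PFAS and DHODH lost their calls when certain libraries were left out, and all other calls that changed did so under the median of ratios over the table. Under it RPIA had a log2 fold change of −0.50 and PRPS1 of −0.43, both short of a 2-fold change, and the genes called were 2 for glucose-6-phosphate in the endoplasmic reticulum, 1 for the pentose phosphate pathway, 1 for ribose phosphate and PRPP synthesis, 2 for nucleotide synthesis and salvage and 2 for NADPH sources. All genes of the table differ between the groups by construction, so neither these nor the TMM factors have an unchanged gene to rest on. With the median of ratios, 4069 genes were called against 5636. No paired analysis was possible because the labels number the libraries 1 to 6 with no number shared between the groups. Reads on RPIA in shOGT (183 to 213) put its counting error at 7.16%. With 1 library left out, the log2 fold change of OGT ran from −4.42 to −4.24, the genes called numbered 5029 to 5512, and of the 6 nucleotide synthesis and salvage genes 4 to 6 were called. The mean log2 ratio difference ran from −0.54 to −0.36 for H6PD to SLC37A4 and from −1.06 to −0.86 for H6PD to RPIA. The other counts of listed genes did not move. The 8 ratios were not refitted under scaling alternatives, since scaling cancels within a library. On the recovered whole reads, edgeR called 5666 and DESeq2 5668 of the 5671 genes.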

Other observations

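NADPH is also made outside the endoplasmic reticulum, and a list held 17 genes that make it or its precursors or serve linked folate steps. Of these, 7 were in the table, 6 called lower and 1 higher in shOGT, against 47.2% and 52.2% of all genes tested. The folate genes were counted whether or not they make NADPH themselves. ME1, the cytosolic malic enzyme, had 750.3, 788 and 874 normalized counts in Scramble and 4183, 4753 and 4643 in shOGT, a log2 fold change of 2.49 (adjusted p = 2.58e-11, limma). It was the only one of the 7 that was higher, and its direction was opposite to that of H6PD. The mitochondrial folate enzymes MTHFD2 and MTHFD1L had log2 fold changes of −1.56 (adjusted p = 1.18e-08, limma) and −1.18 (adjusted p = 3.91e-08, limma), and ALDH1L1, a cytosolic folate enzyme that makes NADPH, had −1.35 (adjusted p = 0.0014, limma). NNT, the transhydrogenase of the inner mitochondrial membrane, had −1.27 (adjusted p = 2.29e-08, limma), and NADK, the kinase that makes NADP+ from NAD+, had −1.13 (adjusted p = 2.20e-08, limma). Under the median of ratios, ME1 and H6PD stayed called and the other 5 did not.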
